A study of Mus musculus with 6 samples.

Results

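Genes of the contractile actin apparatus that are best known from smooth muscle were followed in neural stem cells of mouse embryos in which the transcription factor gene Sox4 was targeted. The set was fixed by name as 10 genes, namely the actin gene Acta2, the transgelin genes Tagln and Tagln2, the calponin genes Cnn2 and Cnn3, the tropomyosin genes Tpm1, Tpm2, Tpm3 and Tpm4, and the myosin light chain gene Myl9. Of these, 9 had a row of their own among the 12316 gene rows of the authors' deposited table. Tpm2 was absent, alone or in a row of several genes. It has no level or fold here and enters just the upstream sequences and the transcript lengths. The list was chosen by gene name with the log2 folds and q-values of this comparison already known, so these values are given as a description, with no test of the set.

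The cells came from embryos of CD-1 mice at day 14.5 of development, were bought from a supplier, and grew as a monolayer with EGF and bFGF. In 2 libraries they carried Sox4 shRNA 1, in 2 libraries Sox4 shRNA 2, and in 2 libraries a scrambled shRNA. All 6 libraries share the lentiviral vector and the selection with puromycin at 0.5 µg/mL. The titles number the libraries of a group 1 and 2, and nothing states that they were separate cultures, so any p-value reflects just the variation among the libraries behind it, which could be technical. The deposited table compares 1 pair of conditions, gives 1 level for each, and does not name them. Which condition carried which shRNA, and whether both Sox4 shRNAs and so all 6 libraries entered it, is therefore not stated, and every fold has the second condition on top. Sox4 stood at 83.9 FPKM in the second condition and at 127 FPKM in the first in the authors' deposited table (Cuffdiff q = 0.0543, not called), and no condition was assigned from it. Exons of Gm26735 on the other strand cover 54.6% of the exon bases of Sox4. FPKM is a fragment count corrected for transcript length and library size, the unit that Cuffdiff writes in such columns, although the header states none.

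Actin filaments and the motor protein myosin II give a cell its tension and shape. Tropomyosins lie along the filament and decide which other proteins can bind it, calponins and transgelins bind its side, and the myosin regulatory light chain switches the motor on when it is phosphorylated. Many genes of this apparatus are driven by serum response factor (SRF), which binds a DNA element known as the CArG box and works with the myocardin-related cofactors that respond to the pool of free actin. In neural stem cells the non-muscle forms support division, adhesion and migration, while Acta2 and Tagln are used as markers of smooth muscle and of cells that change towards a mesenchymal state.

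Acta2 and Tagln2 rose, meaning that the authors flagged them as significant and higher in the second condition. These are 2 of the 9 genes, beside 3.17% of all rows in the authors' deposited table. Of the 9 genes 0 fell, beside 1.83% of all rows, and 7 were not called by Cuffdiff. Among those 7, Myl9 alone, 1 gene, had an unadjusted p under 0.05, as did 12.5% of all rows without being called. The log2 fold was positive for 7 genes and negative for Cnn3 and Tpm1, beside 50.5% of all rows with a positive log2 fold. Of those 7, Tagln, Cnn2, Tpm3 and Tpm4 had a log2 fold smaller than its spread, which is defined further on. The median log2 fold was 0.51 over the 9 genes and 0.0033 over all rows. Per length, the order of the levels in the second condition was Tpm3, Cnn3, Myl9, Tpm4, Tpm1, Acta2, Cnn2, Tagln2 and Tagln, from highest to lowest. In the first condition Cnn3 stood above Tpm3, and Myl9 stood below Tpm4 and Tpm1, where Tpm1 and Myl9 differed by less than 1 FPKM. Acta2, Cnn2, Tagln2 and Tagln held the lowest 4 places in both conditions, and no error is given for a difference between genes. In bulk RNA a change in the number of cells that express a gene and a change in the RNA per cell cannot be told apart.

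**Figure D1:**
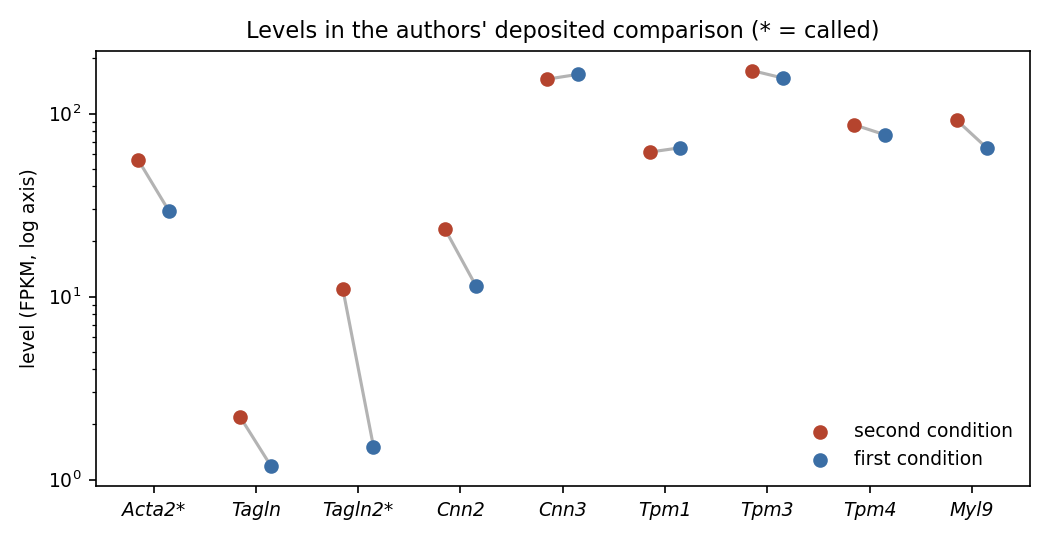
Level of each gene in FPKM on a log axis, with the second condition (red) to the left of the first (blue). Each point is the authors' single value for a condition, so there are no error bars, and an asterisk marks a called gene. Tagln2 shows the widest gap, at 11.0 and 1.51 FPKM, while Cnn3, Tpm1, Tpm3 and Tpm4 lie close together in both conditions.

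The DNA before the RefSeq start of 4 of these genes is shown because Acta2 and Tagln2 both rose and because Cnn2 and Myl9 hold the exact CArG boxes of the set. Each sequence covers the 250 bases before the RefSeq start of the gene on GRCm38.p6, read along the strand of the gene. Acta2 lies at chr19:34255374-34255623 on the minus strand, Tagln2 at chr1:172499996-172500245, Cnn2 at chr10:79988350-79988599 and Myl9 at chr2:156775214-156775463, all 3 on the plus strand. GENCODE M21, from which the gene positions given further on come, begins these genes earlier than RefSeq does. Of the 250 bases, 217 lie inside the GENCODE gene for Acta2, 199 for Tagln2, 44 for Myl9 and 16 for Cnn2, so upstream here means before the RefSeq start. Capitals mark a CArG box, either exact or with 1 mismatch in its centre, and the sequence CATTCC on either strand.
Acta2: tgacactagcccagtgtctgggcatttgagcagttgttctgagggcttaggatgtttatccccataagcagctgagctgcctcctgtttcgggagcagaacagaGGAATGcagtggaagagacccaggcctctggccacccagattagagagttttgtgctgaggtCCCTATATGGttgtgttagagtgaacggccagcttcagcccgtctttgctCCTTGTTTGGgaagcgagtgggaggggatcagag
Tagln2: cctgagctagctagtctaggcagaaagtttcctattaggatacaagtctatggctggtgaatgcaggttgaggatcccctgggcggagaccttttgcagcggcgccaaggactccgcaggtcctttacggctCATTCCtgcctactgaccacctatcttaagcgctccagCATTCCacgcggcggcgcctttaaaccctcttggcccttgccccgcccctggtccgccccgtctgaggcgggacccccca
Cnn2: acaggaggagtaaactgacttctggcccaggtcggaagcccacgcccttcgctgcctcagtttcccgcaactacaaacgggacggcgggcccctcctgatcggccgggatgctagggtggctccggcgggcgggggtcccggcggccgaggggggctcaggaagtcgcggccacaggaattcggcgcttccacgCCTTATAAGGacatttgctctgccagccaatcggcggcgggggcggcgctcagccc
Myl9: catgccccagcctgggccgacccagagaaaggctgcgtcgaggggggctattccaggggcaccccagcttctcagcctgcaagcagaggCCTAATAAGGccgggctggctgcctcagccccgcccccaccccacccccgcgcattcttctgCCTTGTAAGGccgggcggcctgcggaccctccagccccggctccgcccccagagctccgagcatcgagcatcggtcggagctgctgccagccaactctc

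A CArG box was taken as a pair of C, a run of A or T and a pair of G, read on both strands. Upstream sequence was found in RefSeq for 9 of the 10 genes, in 10 windows because Tpm3 has 2 starts, and Tagln had none in the table used. These windows include that of Tpm2, which has no level here. An exact CArG box stood upstream of Cnn2 and of Myl9, in 2 of 10 windows, and in 1.47% of the 32851 windows of all genes. In Cnn2 it spans bases -56 to -47 from the start, and in Myl9 bases -161 to -152. With 1 mismatch allowed in the central run, boxes stood upstream of 4 genes, Acta2, Cnn2, Myl9 and Tpm3, and in 8.59% of all windows. Acta2 held 2 such boxes, at -84 to -75 and at -34 to -25. CATTCC, the MCAT element bound by TEAD factors, stood upstream of Acta2, Tagln2 and Tpm1 and in 12.6% of all windows. Tagln2 held it at -118 to -113 and again at -80 to -75, and had no CArG box in this window by either definition. ACAAAG and ACAATG, short forms of the site that Sox proteins bind, were also searched on both strands. ACAAAG stood in 0 of the 10 windows and in 16.5% of all windows. ACAATG stood upstream of both Tpm3 starts and in 10.7% of all windows. TATAAA stood in 0 of the 10 windows and in 12.4% of all windows. No match in these windows overlapped a match of another of these motifs. The share of G and C ran from 48.8% to 78.8% over the 10 windows, beside a median of 52.4% over all windows. CpG pairs were few upstream of Acta2, at 4, and numbered 14 upstream of Tagln2, 16 of Myl9 and 25 of Cnn2, beside a median of 6 over all windows. A match describes the letters and does not show that a factor binds there.

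**Figure D2:**
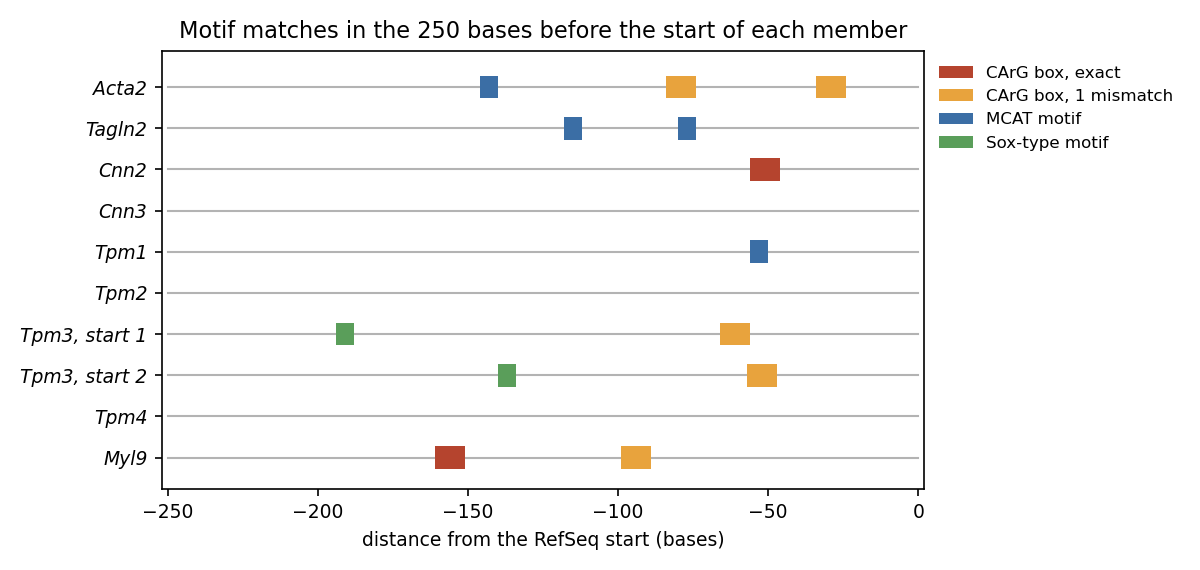
Position of each motif match along the 250 bases before the RefSeq start of each gene, in bases from the start, with 1 line per start. The MCAT motif is CATTCC and the Sox-type motif is ACAATG, and the exact CArG boxes (red) appear on the lines of Cnn2 and Myl9.

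Acta2, which encodes the smooth muscle form of alpha actin (chromosome 19, 34241090 to 34255590 on GRCm38), stood at 55.8 FPKM in the second condition and 29.4 FPKM in the first in the authors' deposited table. It was higher in the second condition by a log2 fold of 0.93, or 1.90-fold, at q = 0.00304 by Cuffdiff per the authors' deposited table. That q is the lowest the table holds, and 230 rows share it. Cytoplasmic actins were far more abundant: Actb stood at 1897 FPKM in the second condition and 1927 FPKM in the first, and Actg1 at 1212 and 1004 FPKM in the same order, neither called in the authors' deposited table. Summed over the 5 actin genes with a row, Acta2 made up 1.76% of the actin level in the second condition and 0.992% in the first. Acta1, the skeletal muscle actin, stood at 1.23 FPKM in the second condition and 0.870 FPKM in the first, and Actc1, the cardiac form, at 0.598 and 1.01 FPKM in the same order in the authors' deposited table.

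Tagln2, the non-muscle transgelin that binds and stabilises actin filaments (chromosome 1, 172500047 to 172507380), stood at 11.0 FPKM in the second condition and 1.51 FPKM in the first in the authors' deposited table. The log2 fold of 2.86, or 7.28-fold, had q = 0.00304 by Cuffdiff per the authors' deposited table. With 1 FPKM added to both levels the log2 fold was 2.26. Counting Tagln2 itself, 4 of the 12316 rows had a log2 fold at least as high. In the first condition its level was lower than that of 89.9% of all rows, and 861 rows lay between 1 and 2 FPKM there. Of those, 4, Tagln2 included, had a log2 fold of 2 or more.

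Tagln, the transgelin of smooth muscle also called SM22 (chromosome 9, 45929619 to 45936058), stood at 2.18 FPKM in the second condition and 1.18 FPKM in the first in the authors' deposited table. It was not called, with a log2 fold of 0.89 at q = 0.907 by Cuffdiff in the authors' deposited table. The neuronal transgelin gene Tagln3 stood at 2.13 FPKM in the second condition and 2.58 FPKM in the first, and was not called in the authors' deposited table. Tagln2 thus held 71.9% of the summed transgelin level in the second condition and 28.7% in the first, while Tagln3 held 13.9% and 48.9%. The family sum was 15.4 FPKM in the second condition and 5.27 FPKM in the first.

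Cnn2, the calponin of many non-muscle cells (chromosome 10, 79988584 to 79996062), stood at 23.3 FPKM in the second condition and 11.5 FPKM in the first in the authors' deposited table. The log2 fold of 1.02 was larger than that of Acta2, yet q was 0.882 by Cuffdiff in the authors' deposited table and it was not called. Cnn3, the acidic calponin, which is expressed in the brain (chromosome 3, 121426497 to 121458207), stood at 154 FPKM in the second condition and 164 FPKM in the first in the authors' deposited table. Cnn3 had a log2 fold of -0.09 at q = 0.883 by Cuffdiff per the authors' deposited table. Cnn3 made up 86.9% of the summed level of both calponin genes in the second condition and 93.4% in the first. Cnn1, the calponin of differentiated smooth muscle, is not analysed here.

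The 3 tropomyosin genes with a row were abundant, differed little between conditions and were not called. Tpm3, which in most cells is made as short cytoplasmic forms (chromosome 3, 90072649 to 90100902), stood at 172 FPKM in the second condition and 156 FPKM in the first, a log2 fold of 0.14 at q = 0.793 by Cuffdiff per the authors' deposited table. Tpm4, a tropomyosin of stress fibres (chromosome 8, 72134975 to 72153142), stood at 86.8 FPKM in the second condition and 76.5 FPKM in the first, a log2 fold of 0.18 at q = 0.683 by Cuffdiff per the authors' deposited table. Tpm1, which is spliced into both muscle and non-muscle forms (chromosome 9, 67022590 to 67049406), stood at 61.6 FPKM in the second condition and 65.0 FPKM in the first, a log2 fold of -0.08 at q = 0.907 by Cuffdiff per the authors' deposited table. The order of the levels, Tpm3 over Tpm4 over Tpm1, was that of the first condition too, where Tpm4 and Tpm1 lay closer. Tpm3 held 53.7% of their summed level in the second condition and 52.5% in the first. GENCODE M21 lists 21 transcripts for Tpm1 and 16 for Tpm3, and the deposited values do not separate muscle from non-muscle forms.

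Myl9, a regulatory light chain of myosin II in smooth muscle and non-muscle cells (chromosome 2, 156775420 to 156781658), stood at 92.2 FPKM in the second condition and 64.5 FPKM in the first in the authors' deposited table. The log2 fold of 0.51 had p = 0.00915 before adjustment and q = 0.121 by Cuffdiff, and Myl9 was not called in the authors' deposited table. Myl12a and Myl12b encode the closely related light chains of non-muscle myosin. Myl12a stood at 37.0 FPKM in the second condition and 38.6 FPKM in the first, and Myl12b at 83.6 and 95.7 FPKM in the same order, neither called in the authors' deposited table. Exons of Myl12b on the same strand cover 13.8% of the exon bases of Myl12a. Myl9 held 43.3% of the sum of Myl9, Myl12a and Myl12b in the second condition and 32.4% in the first. The sum itself was 213 FPKM in the second condition and 199 FPKM in the first.

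**Figure D3:**
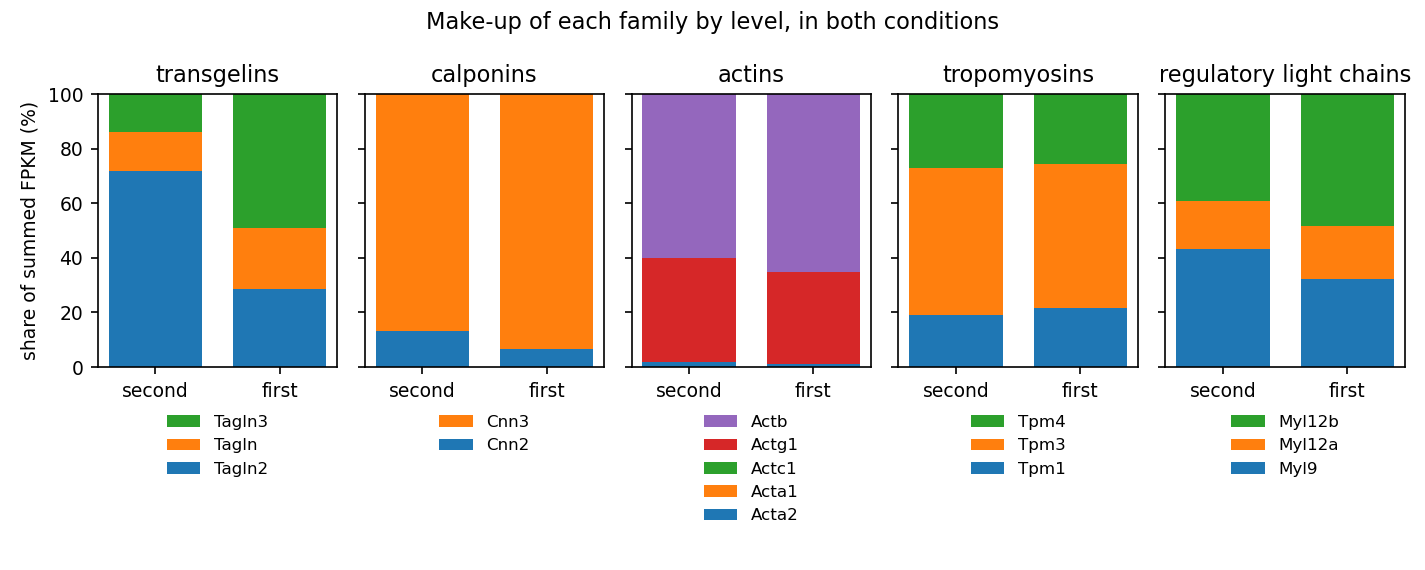
Share of each gene in the summed FPKM of its family, in percent, with the second condition left of the first in each panel. The shares were computed from the authors' levels over the genes with a row and carry no error. Tagln2 fills 71.9% of the transgelin bar in the second condition and 28.7% in the first, while the tropomyosin bars differ by less than 3 percentage points per gene.

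Genes with similar folds differed in the size of their test statistic. The deposited table gives no error, but the log2 fold divided by the test statistic gives a spread for each row, which equals a standard error if the statistic is the fold over its error. The header does not define the statistic. This spread was 0.31 for Acta2 and 0.59 for Tagln2, beside a median of 0.35 over all rows. For Cnn2 it was 3.73, which is 10.6 times that median, and for Tagln it was 2.19, or 6.21 times the median. Of all rows, 170 had a spread of 3 or more. For Cnn2 and Tagln the log2 fold of about 1 or less lies well inside the spread, and a difference could not be resolved in these data. For Cnn3, Tpm1, Tpm3, Tpm4 and Myl9 the spread was between 0.29 and 0.32. Among the 482 rows whose log2 fold was 1 or more in size, Cnn2 is 1 of 259 that were not called.

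**Figure D4:**
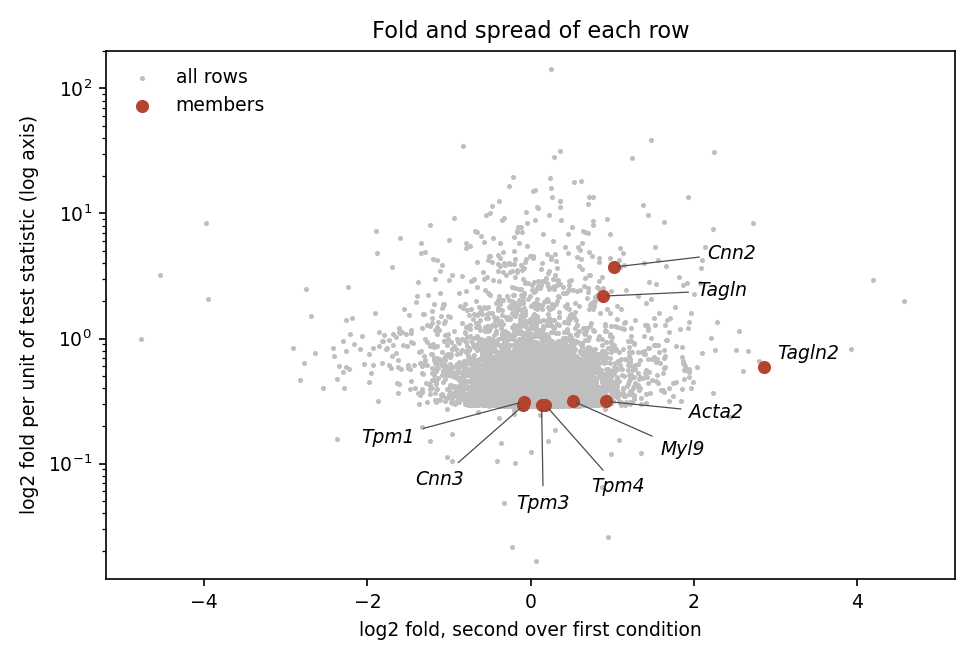
Log2 fold of second over first condition (x axis) against the log2 fold per unit of test statistic (y axis, log scale) for all 12316 rows (grey) and the 9 genes (red). Cnn2 and Tagln sit far above the other 7 genes, at 3.73 and 2.19, while Tagln2 stands apart on the x axis.

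Sequence shared with other genes differed between the members, which matters because the authors' handling of reads with several matches, and of strand, is not given in the sources used here. Each transcript in GENCODE M21 was cut into all runs of 50 bases, and a run was counted as shared where a transcript of another gene holds it on either strand. For Tagln 58.3% of runs were shared, nearly all with Gm48529, an antisense gene whose exons cover 62.4% of the exon bases of Tagln. For Cnn3 24.0% were shared, with Gm42928 on the other strand and with Gm4815 and Gm17936. For Tpm3 23.2% were shared with Tpm3-rs7, a related sequence, and for Tpm4 15.7% with Gm7809 and the antisense gene Gm26586. How far shared runs affect the levels of these 4 genes is unknown and was not tested. In contrast, 0.326% of runs were shared for Acta2 and 0.565% for Tagln2, and none for Cnn2, Tpm1 and Myl9. With runs of 35 bases the shared part was 61.4% for Tagln, 0.529% for Cnn2, 1.02% for Acta2 and 1.14% for Tagln2. The wide spread of Tagln stands beside its antisense partner, and that of Cnn2 stands beside no shared run of 50 bases. The shared runs of Cnn3, Tpm3 and Tpm4 stand beside spreads of 0.29 each, below the median of 0.35 over all rows. The part of shared sequence in the spread was not tested.

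Other actin genes and partners were read from lists chosen with earlier results of these data known. Of 21 genes with a row among actin cross-linkers and focal adhesion genes, 4 rose and 0 fell in the authors' deposited table, or 19.0% and 0%, beside 3.17% and 1.83% of all rows. Their median log2 fold was 0.25. Flna encodes filamin A, which joins actin filaments into networks. Flna stood at 62.7 FPKM in the second condition and 29.2 FPKM in the first in the authors' deposited table (Cuffdiff q = 0.00304). Tln1 and Tln2 encode talins, which link integrins to actin, and per the authors' deposited table rose 1.51-fold (Tln1) and 1.50-fold (Tln2). Tgfb1i1, a focal adhesion adaptor also called Hic-5, stood at 2.78 FPKM in the second condition and 1.03 FPKM in the first in the authors' deposited table (Cuffdiff q = 0.00528). The most abundant genes of this list in the second condition, Lasp1 and Pdlim5, had log2 folds of 0.25 and 0.13 and were not called in the authors' deposited table. In the first condition Fhl1 stood above Pdlim5, and its log2 fold was -0.25, not called.

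Among 13 genes of myosin II chains and their regulators, 3 rose and 0 fell in the authors' deposited table, or 23.1% and 0%, beside 3.17% and 1.83% of all rows. The median log2 fold was 0.10. Myh9, a heavy chain of non-muscle myosin II, stood at 57.5 FPKM in the second condition and 32.7 FPKM in the first in the authors' deposited table, with a Cuffdiff q of 0.00304. Myh14, another non-muscle heavy chain, rose 1.83-fold in the authors' deposited table. Mylk, the kinase that phosphorylates the regulatory light chain, rose 1.67-fold there, to 3.08 FPKM against 1.84 FPKM in the first condition, at q = 0.0374 by Cuffdiff per the authors' deposited table. The most abundant genes of the list, Myl6 and Rhoa, had log2 folds of 0.22 and -0.27 and were not called in the authors' deposited table.

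Of 26 genes of actin assembly and turnover with a row, 0 rose and 0 fell by Cuffdiff, beside 3.17% and 1.83% of all rows, shares at which a list of this size holds few calls. Of the 26, 4 (15.4%) had an unadjusted p under 0.05 without being called, beside 12.5% of all rows, and the median log2 fold was -0.09 in the authors' deposited table. The most abundant genes of this list, Tmsb4x, which sequesters actin monomers, and Cfl1, which severs filaments, had log2 folds of -0.54 and -0.21 in the authors' deposited table. The 4 other actins with a row and the 5 thin filament partners with a row gave 0 Cuffdiff calls, and 0 of them had a raw p under 0.05. In that partner list Nebl and Tmod3 were the most abundant, with log2 folds of 0.35 and 0.15 in the authors' deposited table. Of SRF and its cofactors, 6 had a row and Cuffdiff called 0, while 1 had a raw p under 0.05. That gene was Srf, at 13.5 FPKM in the second condition and 10.1 FPKM in the first in the authors' deposited table. Mrtfb, listed under its older name Mkl2, and Elk4 were the most abundant of this list, with log2 folds of 0.50 and 0.03 in the authors' deposited table.

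Transcript length moved with these calls. Over these 6 lists, 5 of the 10 genes among the longest 10% of transcripts rose (longest coding transcript over 6847 nt in GENCODE M21), as did 2 of the other 65. Over all rows with a known length, 13.2% of the longest 10% rose, beside 2.06% of the others. The transcripts of the 10 members are short, between 1128 and 2890 nt, so Acta2 and Tagln2 do not belong to that length group. The 5 called genes of that group are Flna, Tln1, Tln2, Myh9 and Mylk. The other 2 are Myh14, at 6499 nt, and Tgfb1i1, at 3788 nt. The part of length in these calls was not tested.

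**Figure D5:**
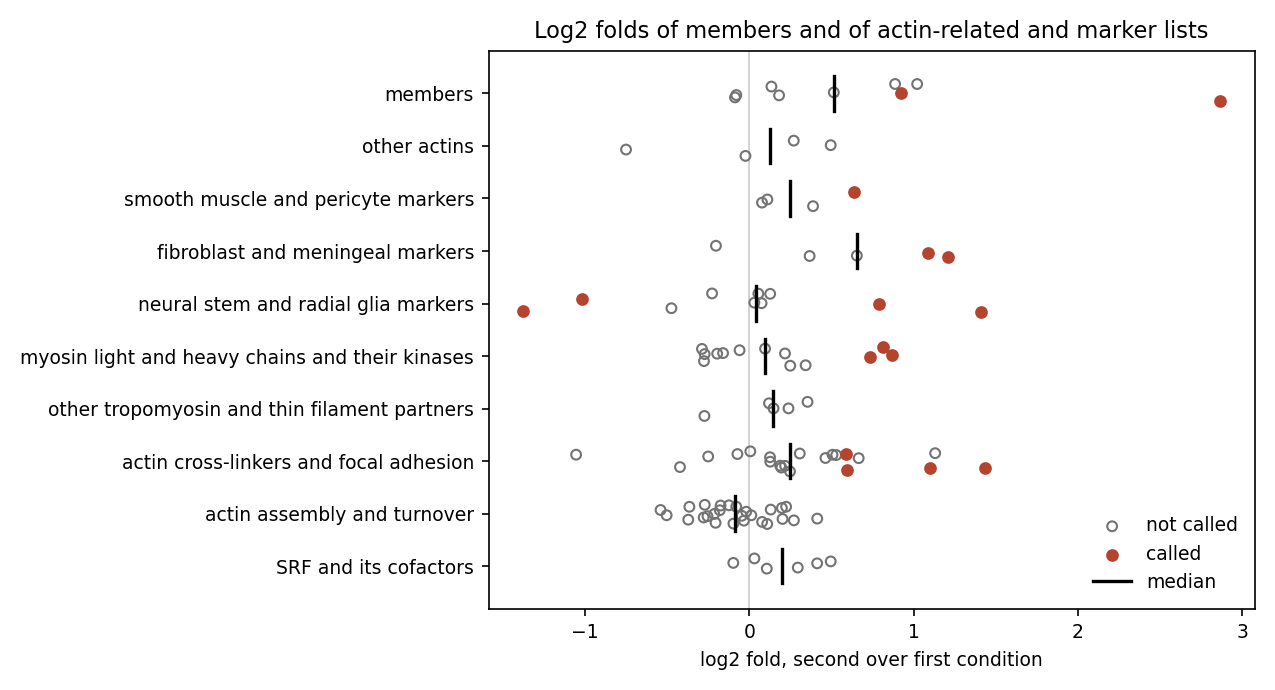
Log2 fold of second over first condition for each gene with a row, by list, with called genes filled in red and the median of each list as a black bar. Besides members and markers, filled points lie in the lists of cross-linkers and of myosin genes, all to the right of 0, and the list of actin assembly and turnover holds none.

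Markers of the cell types in which these genes are best known were read beside them. Of 15 markers of smooth muscle and pericytes, 4 had a row, and their summed level was 64.3 FPKM in the second condition and 51.2 FPKM in the first. Smtn, which encodes the actin-binding protein smoothelin, rose to 18.2 FPKM in the second condition, against 11.7 FPKM in the first, at q = 0.0363 by Cuffdiff per the authors' deposited table. Exons of Gm11946 on the other strand cover 16.3% of the exon bases of Smtn. Notch3 and Cspg4, the most abundant of the list, were not called, and neural cells express both. The defining smooth muscle genes Myh11, Cnn1, Des, Lmod1 and Myocd have no row in the table as used and are not analysed here. Synpo2, Rgs5, Pdgfrb, Abcc9, Kcnj8 and Anpep of the same list have no row either. Of 12 fibroblast and meningeal markers, 5 had a row, with a summed level of 63.3 FPKM in the second condition and 60.3 FPKM in the first. Most of that sum was Pdgfra, at 41.8 FPKM in the second condition and 48.1 FPKM in the first in the authors' deposited table. Without Pdgfra the sum was 21.5 FPKM in the second condition and 12.2 FPKM in the first. The log2 fold was positive for 4 of the 5, with a median of 0.65. Among them Fbn1 and Col5a1 rose, at 3.78 and 5.63 FPKM in the second condition, against 1.63 and 2.65 FPKM in the first in the authors' deposited table. Exons of Gm9913 on the other strand cover 20.1% of those of Fbn1. Both genes belong to the longest 10% of transcripts, at 11971 nt for Fbn1 and 8406 nt for Col5a1, and the part of length in their calls was not tested. Pdgfra and Foxc1 were the most abundant of that list and were not called. Foxc1 stood at 10.5 FPKM in the second condition and 6.70 FPKM in the first in the authors' deposited table (Cuffdiff q = 0.0550). Col1a1, Col1a2, Col3a1, Dcn and Lum are not analysed here. The part of other cell types in the rise of Acta2 and Tagln2 was not tested.

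All 10 markers of neural stem cells and radial glia had a row, and their summed level was 4554 FPKM in the second condition and 6678 FPKM in the first. The log2 fold was positive for 6 of the 10, with a median of 0.04. Most of the sum came from Fabp7, a lipid-binding protein of radial glial cells, at 2286 FPKM in the second condition and 4620 FPKM in the first in the authors' deposited table. Without Fabp7 the sum was 2269 FPKM in the second condition and 2058 FPKM in the first. Vim, the intermediate filament vimentin, stood at 775 FPKM in the second condition and 709 FPKM in the first and was not called in the authors' deposited table. Sox2 stood at 51.1 FPKM in the second condition and 59.7 FPKM in the first in the authors' deposited table. Slc1a3, Ptprz1 and Pax6 had log2 folds of 0.06, 0.07 and 0.03 and were not called in the authors' deposited table. Nes, which encodes the intermediate filament nestin, rose to 169.8 FPKM in the second condition, against 98.1 FPKM in the first in the authors' deposited table. Tnc, the matrix protein tenascin C, rose to 94.5 FPKM in the second condition, against 35.5 FPKM in the first in the authors' deposited table, and its longest coding transcript of 7106 nt also lies in the longest 10%. Fabp7 fell, as did Hes5, a target of Notch signalling, to 14.4 FPKM in the second condition, against 37.3 FPKM in the first in the authors' deposited table. Exons of Gm20421 on the other strand cover 31.8% of the exon bases of Hes5. The lowest of the 10 in the second condition was Hes1, at 10.6 FPKM there and 14.8 FPKM in the first, and it was not called in the authors' deposited table.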

How the data were processed

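The labels describe poly(A) RNA from 6 libraries, prepared by a SOLiD kit. Alignment with TopHat2 2.0.9 to mm10, with Cufflinks 2.2.1 and an unversioned Cuffdiff, is recorded per the submitters' processing notes. For the annotation and for how strand and reads with several matches were handled, the answer is not given in the sources used here. Deposited columns are, per the file headers, the level of each condition, the log2 fold, a test statistic (a score), the q-value and p-value, and the significance flag. The deposited levels were taken as FPKM, the unit Cuffdiff writes. The table holds no value per library, so depth is unknown, no SD or n is given, and no test was refitted.

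The members and lists were chosen with earlier results of these data known. Named genes are all members, then of each list the called genes and the 2 of highest level, and Sox4. Acta1, Actc1, Tagln3, Myl12a and Myl12b were added as relatives of members. Srf, Fhl1, Sox2, Hes1, Slc1a3, Ptprz1 and Pax6 likewise fall outside that rule. All were chosen after their values were seen. Calls are the authors' flag, and the highest q called was 0.0494. Shares, spreads, shared runs and motif matches were computed here with Python 3.11.15, numpy 2.4.6, pandas 2.3.3 and matplotlib 3.10.9. The adjustment and motif search were tested on simulated data. Positions and transcripts came from GENCODE M21 (GRCm38), which may differ from the authors' annotation, and upstream sequences from RefSeq (GRCm38.p6). A planned comparison of protein sequences was not made, and 1 gene was left out of a list and is not reported here. Beside it, 13 genes of the 6 actin-related lists have no row of their own in the table as used.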

Additional observations from a re-analysis of the deposited data

How the results depend on the processing

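The 2 calls among the members held with q recomputed over 11803 rows at 1 FPKM or more in the higher condition, at a q of 0.01, in single-gene rows and in rows at 1 or more in both conditions. Requiring an absolute log2 fold of at least 1 left 1 call, Tagln2, since Acta2 lies at 0.93. Myl9 had a recomputed q of 0.105. The 7 rises over the lists other than markers became 4 at a q of 0.01 and 2 with that fold, as stricter thresholds must give. The members with a CArG box numbered 4 with 1 mismatch allowed and stayed at 2 with 50 more bases after the start, a window chosen after seeing the data. The sign of a log2 fold is no test under these settings, since a pseudocount of 1 or 0.1 cannot change it and centring moved every fold by 0.0013, less than the smallest among the members. Tagln2 moved from 2.86 to 2.26 once 1 FPKM was added. No paired analysis was possible because the numbered libraries have no values of their own in the deposited file. Leaving out each replicate and comparing each shRNA alone were not run for the same reason.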
